A study of Mus musculus with 27 samples.

Results

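The 10 genes described here encode cytokines and receptors of the interleukin-1 (IL-1) family: Il18, Il33, Il1a and Il1b (cytokines), Il1rn (the receptor antagonist), Il1r1, Il1rl1 and Il18r1 (ligand-binding receptor chains), Il1rap (the shared accessory chain) and Sigirr (an inhibitory receptor). They were chosen by name, from knowledge of the family and with earlier results of these data known. All 10 were found among the 22524 genes of the deposited tables. RNA was sequenced in 27 libraries. Jejunal organoids, grown from intestinal crypts of male C57BL/6J mice aged 8 to 12 weeks and harvested at passage 5 to 8, came from 9 animals, 3 from each of the specific pathogen-free (SPF) facilities SR and SE and 3 from a germ-free (GF) facility. Every organoid culture gave a library labelled untreated and another labelled TNF-treated (the cytokine tumour necrosis factor at 5 ng/mL for 8 hr), as did 3 cultures of the line m-ICc12, immortalised epithelial cells of the mouse small intestine. Mouse embryonic fibroblasts (MEFs) gave 3 untreated libraries. The m-ICc12 and MEF replicates are not stated to be independent derivations, so their p-values measure the spread between these samples, which may be technical.

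IL-1 family cytokines are alarm signals of barrier tissues. IL-1α and IL-1β share the binding chain IL-1R1, while IL-18 and IL-33 each have a binding chain of their own. The bound chain recruits an accessory chain and signals through MyD88 and IRAK kinases to NF-κB, while the receptor antagonist occupies IL-1R1 without signalling and SIGIRR dampens the signal. IL-1β and IL-18 are made as precursors that inflammasome caspases cut, and in the gut IL-18 comes largely from the epithelium, whereas IL-33 is stored in the nucleus and released from damaged cells to act on ST2, the product of Il1rl1.

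The label of each library and the name of its deposited data gave opposite treatments in all 12 organoid and m-ICc12 pairs. Groups follow the labels. Nfkbia, which encodes the inhibitor of NF-κB that TNF induces, was at 196 ± 27.7 CPM (read counts scaled to library size with the trimmed mean of M-values; mean ± SD, n = 9) in organoid libraries labelled untreated and at 31.1 ± 3.64 in those labelled TNF-treated. It was at 87.2 ± 23.9 and 19.5 ± 4.21 CPM (n = 3) in the m-ICc12 libraries with these labels. Tnfaip3, Nfkb2 and Relb, 3 further NF-κB target genes, were also lower in the libraries labelled TNF-treated in all 12 pairs, so these genes go against the labels, and every direction by label below is that of the library's label. Total counts ranged from 6071103 to 43843615 (median 30339856), and the floor of 3 counts used here corresponds to 0.0684 to 0.494 CPM. The shallowest library, m-ICc12 M1 labelled TNF-treated, also gave 13.5% of its counts to Lars2. Epithelial markers summed to between 4847 and 5813 CPM in organoids, 1670 and 2287 in m-ICc12 and 7.33 and 12.6 in MEFs. In m-ICc12, Epcam (4.37 ± 2.38 CPM) and Cdh1 (1.502 ± 0.490), which define epithelium, were low, and neither was called different from MEFs (log2 1.55 and 0.0025). Krt8 and Krt20 stood at 1387 and 683 CPM on average, and Krt8, Krt20 and Vil1 were called higher than in MEFs (8.21, 10.24 and 4.67). The fibroblast-associated gene Vim stood at 2516 ± 600 CPM, beside 2474 ± 120 in MEFs. Of the other 6 fibroblast markers, Col1a1 (log2 −11.34), Col1a2 (−11.28), Col3a1 (−10.87), Pdgfrb (−10.71) and Pdgfra (−5.34) were lower in m-ICc12 than in MEFs, and Thy1 had no count in either. The 8 immune markers summed to between 75.01 and 126 CPM in m-ICc12 libraries labelled untreated, between 4.03 and 19.9 in such organoids and between 1.78 and 3.27 in MEFs. In m-ICc12 most of this sum was Csf1r, a receptor of macrophages (90.4 ± 22.7 CPM). Ptprc and Cd68 were also higher in m-ICc12 than in organoids (log2 −6.58 and −2.92 for organoids against m-ICc12) and than in MEFs (5.24 and 2.35). Itgam went the other way and was higher in organoids than in m-ICc12 (10.26). In the m-ICc12 libraries labelled untreated 5 of the 8 had no count, among them Cd3e, Itgam, Adgre1 and Lyz2.

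The genes lie in few places of the mouse genome (GRCm38). Il1r1 (chr1:40225080-40317257), Il1rl1 (chr1:40429570-40465415) and Il18r1 (chr1:40465552-40500854) lie in 1 row on the plus strand, with 136 bases between Il1rl1 and Il18r1. Il1rn (chr2:24336853-24351494, plus strand), Il1a (chr2:129299610-129309972) and Il1b (chr2:129364570-129371139, both minus strand) share a chromosome. Sigirr (chr7:141091175-141100572, minus strand), Il18 (chr9:50554827-50581840), Il1rap (chr16:26581704-26730117) and Il33 (chr19:29925114-29960718, all plus strand) lie alone. The annotation holds several start sites for Il1rl1, Il33, Il1rn, Il1r1 and Il18r1, and the deposited counts pool them per gene. Exons of Il1a, Il1b and Il1rap overlap an antisense gene by 222, 25 and 552 bases, and whether the counting used strand is not given in the sources used here.

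The 250 bases before the start site are shown for 4 genes whose mean level was highest in 1 kind of culture, named in brackets: both start sites of Il1rl1 (MEFs), the second of Il33 (m-ICc12), and the first of Il18 and of Il1rn (organoids). RefSeq windows were found for 9 of the 10 genes (Sigirr was the exception). The sequences are RefSeq's for GRCm38.p6, written 5′ to 3′ in the direction of the gene. Capitals mark matches to 3 motifs, searched on either strand, which do not overlap each other in these windows. The motif of NF-κB was searched as GGGNNNNNCC. The motif of the factor AP-1 was searched as TGANTCA. The core of a TATA box, which positions the polymerase at some promoters, was searched as TATAAA.
Il1rl1 (chr1:40429320-40429569, + strand): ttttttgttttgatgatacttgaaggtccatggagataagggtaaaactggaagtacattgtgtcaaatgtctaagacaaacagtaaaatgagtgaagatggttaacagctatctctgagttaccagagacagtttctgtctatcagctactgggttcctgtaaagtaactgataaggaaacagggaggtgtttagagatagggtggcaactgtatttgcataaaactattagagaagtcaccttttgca
Il1rl1 (chr1:40439379-40439628, + strand): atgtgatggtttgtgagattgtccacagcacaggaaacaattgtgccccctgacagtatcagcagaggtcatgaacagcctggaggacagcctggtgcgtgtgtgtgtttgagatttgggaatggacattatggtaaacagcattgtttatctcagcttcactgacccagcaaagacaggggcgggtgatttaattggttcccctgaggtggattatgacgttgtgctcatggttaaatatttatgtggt
Il33 (chr19:29945540-29945789, + strand): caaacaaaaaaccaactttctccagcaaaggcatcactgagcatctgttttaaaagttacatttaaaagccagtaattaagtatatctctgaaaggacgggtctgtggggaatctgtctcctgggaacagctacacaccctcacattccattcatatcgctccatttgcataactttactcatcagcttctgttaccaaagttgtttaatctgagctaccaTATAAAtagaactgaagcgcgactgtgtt
Il18 (chr9:50554450-50554699, + strand): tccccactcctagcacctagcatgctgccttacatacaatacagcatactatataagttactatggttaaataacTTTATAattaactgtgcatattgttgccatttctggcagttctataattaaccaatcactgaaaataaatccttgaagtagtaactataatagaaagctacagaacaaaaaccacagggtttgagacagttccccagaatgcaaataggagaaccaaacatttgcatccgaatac
Il1rn (chr2:24336610-24336859, + strand): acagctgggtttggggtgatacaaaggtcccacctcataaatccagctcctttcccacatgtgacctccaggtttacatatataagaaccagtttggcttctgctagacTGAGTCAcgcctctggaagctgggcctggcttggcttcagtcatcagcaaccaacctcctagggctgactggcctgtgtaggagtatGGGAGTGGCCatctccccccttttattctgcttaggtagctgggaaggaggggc
The AP-1 letters began 141 bases and the κB letters 54 bases before the Il1rn start. The TATA letters began 29 bases before the second Il33 start and 175 bases before the Il18 start. The bases after the Il18 window were not found near the start of an annotated Il18 transcript, so that start site is uncertain. Of the windows not shown for these genes, the first of Il33 held the TATA letters 203 bases before its start. The third of Il1rn held the κB letters 51 bases before its start, and the second of Il1rn held none. Neither Il1rl1 window held any of these letters. Over all 32851 promoter windows of this length, 45.8% held the κB letters, 6.75% the AP-1 letters and 12.4% the TATA letters, so a κB match in 1 window is common. These are matches of letters only.

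**Figure D1:**
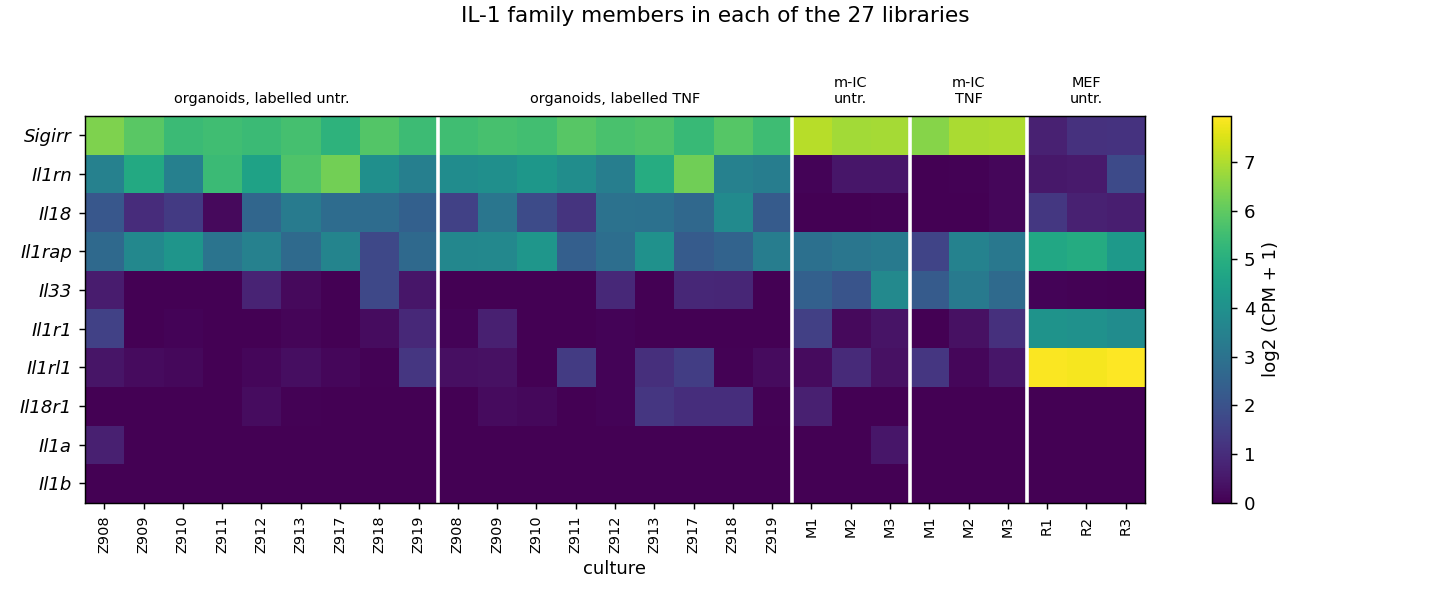
Level of the 10 genes (rows) in each of the 27 libraries (columns, by culture and label), as log2 (CPM + 1). Il1rl1 and Il1r1 are bright only in the 3 MEF libraries, Il1rn and Il18 in organoids, Sigirr in organoids and m-ICc12, and Il1b is at 0 in every library.

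Of the 4 cytokines Il18, Il33, Il1a and Il1b, Il18 had the highest mean level in organoids. In the 9 libraries labelled untreated it ranged from 0.153 CPM in the SE culture Z911 over a median of 4.43 to 8.82 in the SE culture Z913, and in those labelled TNF-treated from 1.27 over 5.40 to 12.9. All 18 organoid libraries were above the floor, with a wide spread between cultures of the same facility. The m-ICc12 libraries labelled untreated held 1 count of Il18 in all (in M3), against 1003 in the organoids. The ratio of the 2 pooled levels was 508 (95% interval 90.999 to 20092, counting error only), and the difference passed the test across all genes (edgeR's quasi-likelihood test, adjusted p = 0.00018). MEFs had 1.45, 0.655 and 0.575 CPM, all above the floor and within the range of the organoids, and 115 times the pooled level of m-ICc12 (20.1 to 4577, counting error only; adjusted p = 0.0032), a call that was lost without the MEF library R1 (adjusted p = 0.054). The organoid level was 4.58-fold that of MEFs (log2 2.20 ± 0.957 SE), which missed the threshold in edgeR (adjusted p = 0.053) and passed it in DESeq2 (2.14, adjusted p = 0.017) and with the organoid libraries labelled TNF-treated (2.61, edgeR adjusted p = 0.0041). Since these are bulk samples, fewer cells of a type and less RNA per cell cannot be told apart, here and for all genes below.

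Il33 showed a different order, with m-ICc12 highest. The m-ICc12 libraries labelled untreated had 4.45, 3.17 and 12.2 CPM and those labelled TNF-treated 3.83, 8.41 and 5.72. Under both labels each m-ICc12 library lay above every organoid library, of which 10 of 18 had no count of Il33. The highest organoid value was 2.32 CPM, in the GF culture Z918 labelled untreated. The MEFs held 3 counts together. Organoids labelled untreated had 0.0717-fold the m-ICc12 level (log2 −3.80 ± 1.27, adjusted p = 0.016), a call that was lost without the m-ICc12 culture M3 (log2 −3.00, adjusted p = 0.11). Without the organoid culture Z918 the difference was −4.82 (adjusted p = 0.0035). The pooled m-ICc12 level was 238 times that of MEFs (81.3 to 1159, counting error only; adjusted p = 2e-05), and the organoid level 17.9 times (5.97 to 87.8), but in organoids Il33 stayed under the filter for that test. The fitted log2 difference between m-ICc12 and MEFs, 7.74, was 6.94 without M3 and 8.52 without the MEF library R1. The summed immune markers were also highest in m-ICc12, and their part in these differences was not tested.

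The cytokines that bind IL-1R1 were hardly found. Il1b had no count in any of the 27 libraries, 778720741 counts in total, which allows a pooled level of up to 0.00385 CPM. Il1a had 17 counts in the organoid library Z908 labelled untreated, 16 in the m-ICc12 library M3 labelled untreated, and none in the other 25. Il1b could not be tested, and Il1a was under the filter in every comparison. With every gene of at least 1 count tested, Il1a was not called in any. No statement on the IL-1α or IL-1β proteins follows from these counts.

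Il1rn, whose product blocks IL-1R1, was present in every organoid library. It ranged from 9.66 over a median of 23.1 to 75.8 CPM in those labelled untreated and from 9.23 over 13.9 to 73.6 in those labelled TNF-treated. The GF culture Z917 was highest under both labels. In m-ICc12 labelled untreated it was at 0.0586, 0.394 and 0.409 CPM and in MEFs at 0.427, 0.504 and 2.46, all below the lowest organoid library. The organoid level was 100-fold that of m-ICc12 (log2 6.65 ± 0.925, adjusted p = 1e-05) and 27.4-fold that of MEFs (4.77 ± 0.881, adjusted p = 0.00017). Between m-ICc12 and MEFs it did not pass (−1.995 ± 1.16, adjusted p = 0.16), but did with the m-ICc12 libraries labelled TNF-treated (−4.42, adjusted p = 0.021). The MEF library R3 set part of the MEF level, and without it the difference of organoids from MEFs was 5.96 on the log2 scale. Between the organoid and m-ICc12 libraries labelled TNF-treated the difference was 8.67.

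Of the ligand-binding chains, Il1rl1 and Il1r1 were highest in MEFs. Il1rl1, which encodes the IL-33 receptor ST2, stood at 235, 227 and 245 CPM in MEFs. In organoids labelled untreated it ranged from 0 over 0.116 to 1.37 CPM and in m-ICc12 it was at 0.176, 0.941 and 0.288, so that the MEFs were separate from all other libraries. The MEF level was 879-fold that of organoids (log2 −9.78 ± 0.499 for organoids against MEFs, adjusted p = 4.4e-11) and 491-fold that of m-ICc12 (−8.94 ± 0.373, adjusted p = 4.5e-10). The first value was −10.67 without the organoid culture Z919 and −8.95 when organoids labelled TNF-treated were taken, and the second was −9.99 without m-ICc12 M2, all of them called. For comparison, Col1a1, a collagen gene of fibroblasts, differed by −10.61 between organoids and MEFs. Whether the few Il1rl1 counts in organoids are their own RNA was not tested. ST2 is best known from mast cells and lymphocytes, but the 4 mast cell markers (Cpa3, Mcpt4, Tpsb2 and Fcer1a) had no count in the MEF libraries.

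Il1r1, the signalling receptor for IL-1α and IL-1β, was at 16.0, 15.0 and 13.5 CPM in MEFs. It had no count in 10 of the 18 organoid libraries and reached 1.90 CPM in 1 of them, Z908 labelled untreated. In m-ICc12 labelled untreated it was at 1.82, 0.153 and 0.336 CPM. The MEFs again lay above all others, by 41.7-fold over organoids (−5.38 ± 1.22, adjusted p = 0.001) and 20.6-fold over m-ICc12 (−4.36 ± 0.705, adjusted p = 0.00017). Single libraries set the size of these values: without Z908 the first was −6.60 (−7.26 with the organoid libraries labelled TNF-treated), and without m-ICc12 M1 the second was −5.96. Il18r1, the IL-18 receptor chain beside Il1rl1 on the chromosome, had no count in MEFs, 21 counts in m-ICc12, all in M1 labelled untreated, and at most 1.39 CPM in organoids. It was under the filter in every comparison of cultures, and was not called in any with all genes of at least 1 count tested. Il1rl1 and Il18r1 thus stood far apart in MEFs, at 25310 counts and 0.

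Il1rap, the accessory chain that both IL-1R1 and ST2 need to signal, was found in every library, as was Sigirr. It ranged from 2.32 over 7.33 to 16.5 CPM in organoids labelled untreated, was at 6.68, 7.73 and 8.68 in m-ICc12, and at 25.99, 28.4 and 18.2 in MEFs. The MEF libraries lay above those of both other cultures, by 2.80-fold over organoids (−1.49 ± 0.417, adjusted p = 0.005) and 3.24-fold over m-ICc12 (−1.69 ± 0.263, adjusted p = 0.00012). Organoids and m-ICc12 did not differ past the threshold (0.17 ± 0.492, adjusted p = 0.78).

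Sigirr, the inhibitory receptor that restrains IL-1 family and Toll-like receptor signals, had the highest mean level of these transcripts in organoids and in m-ICc12. It ranged from 33.8 over 44.05 to 84.5 CPM in organoids labelled untreated and was at 134, 114 and 115 CPM in m-ICc12, with no overlap. Il1rn was above Sigirr in the organoid culture Z917 under both labels (75.8 against 33.8 CPM labelled untreated, 73.6 against 39.5 labelled TNF-treated). The same held in Z913 labelled untreated (52.9 against 47.7 CPM). In MEFs Sigirr was at 0.641, 1.21 and 1.23 CPM. Organoids had 0.421-fold the m-ICc12 level (−1.25 ± 0.202, adjusted p = 4.9e-05), 49.8-fold that of MEFs (5.64 ± 0.365, adjusted p = 9.1e-10), and m-ICc12 had 116-fold that of MEFs (6.86 ± 0.251, adjusted p = 1.3e-10). The study picked Sigirr from these libraries among the transcripts that set the cultures apart, so its direction here is not independent evidence. The summed immune markers followed the same order for m-ICc12, organoids and MEFs, and their part in these differences was not tested.

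**Figure D2:**
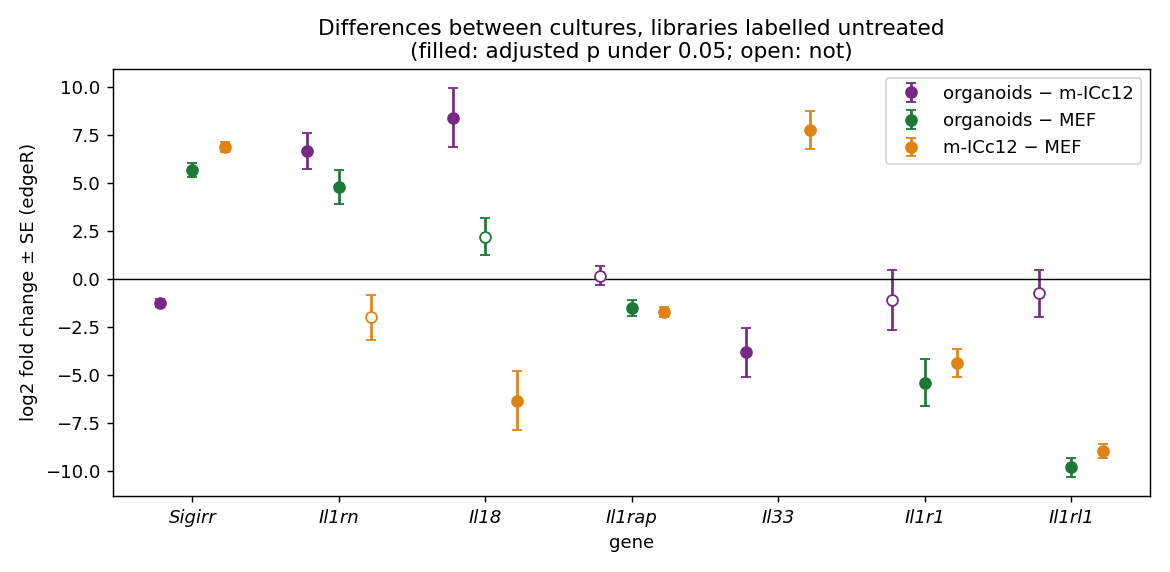
Log2 fold change with its standard error for the 7 genes tested in at least 1 comparison of cultures, from edgeR on libraries labelled untreated (9 organoid, 3 m-ICc12, 3 MEF). Filled points have an adjusted p under 0.05. The lowest pair of points belongs to Il1rl1, and Il18 and Il33 turn in opposite directions between m-ICc12 and MEFs.

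In counts, 4 of the 7 members tested between organoids and m-ICc12 passed (2 higher and 2 lower in organoids), while 60.9% of all genes tested passed, 31.6% higher and 29.3% lower. Against MEFs, 5 of 6 passed in organoids (67.2% of all genes, 34.6% higher and 32.6% lower), 2 higher and 3 lower, and 6 of 7 in m-ICc12 (59.3% of all genes, 28.1% higher and 31.2% lower), 2 higher and 4 lower. The members' median log2 fold changes were −0.74, 0.35 and −1.995 in these 3 comparisons, beside 0.03, 0.03 and −0.05 over all genes tested. The shares are thus near or above those of all genes, which differ widely between these cultures, and the 3 comparisons share libraries. The members left untested were those with too few counts, 3, 4 and 3 of the 10.

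Divided by exon length (RPKM, which is CPM per kilobase of exon), the order within a culture could be read. In organoids labelled untreated, Sigirr (16.4 ± 4.93 RPKM) came before Il1rn (5.32 ± 4.17), Il18 (3.94 ± 2.72) and Il1rap (0.748 ± 0.385), and the ranges of neighbours in that order overlapped. In m-ICc12, Sigirr (39.8 ± 3.74) was followed by Il33 (2.29 ± 1.69) and Il1rap (0.677 ± 0.0879), with ranges that did not overlap. In MEFs, Il1rl1 (34.2 ± 1.32) was first, Il1r1 (2.34 ± 0.196) and Il1rap (2.13 ± 0.470) overlapped, and Il18 (0.866 ± 0.468) and Sigirr (0.337 ± 0.110) came after them. Of the summed RPKM of the 10 genes, Sigirr made up 62.4% on average in organoids and 92.3% in m-ICc12, and Il1rl1 85.3% in MEFs.

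**Figure D3:**
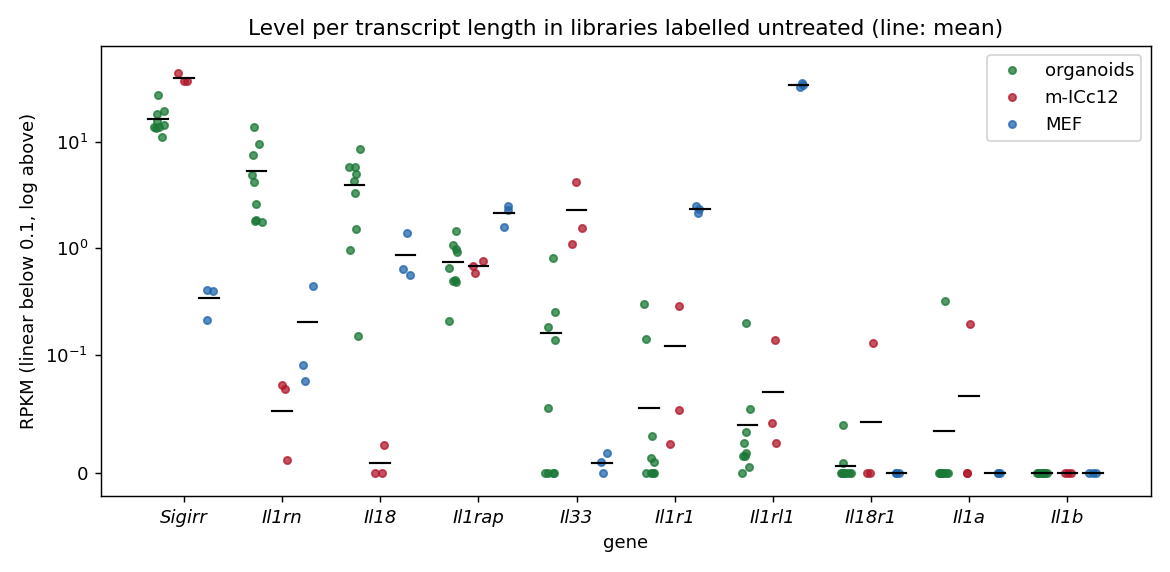
RPKM of the 10 genes in the libraries labelled untreated, 1 point per library and a line at the mean; the axis is linear below 0.1 and logarithmic above. Sigirr leads in organoids and m-ICc12 and Il1rl1 in MEFs, at 16.4, 39.8 and 34.2 RPKM on average.

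Between the labels, no member passed the test in organoids. Of 12104 genes tested, 168 (1.39%) passed, and 0 of the 4 members above the filter did. None had an unadjusted p under 0.05 (8.86% of all genes did), and DESeq2 called none either. Against the libraries labelled untreated, those labelled TNF-treated differed by 0.42 ± 0.514 for Il18 (higher in 5 of 9 cultures), −0.48 ± 0.421 for Il1rn (lower in 7 of 9), 0.15 ± 0.339 for Il1rap (higher in 6 of 9) and −0.05 ± 0.135 for Sigirr (higher in 7 of 9). The adjusted p-values lay between 0.87 and 0.98. For Sigirr, the median of the pairs was slightly positive (0.10) and the fitted change slightly negative, with Z908 at 84.5 and 44.8 CPM. Within a culture the pairs could differ widely, as for Il18 in the SR culture Z909, with 0.999 CPM labelled untreated and 7.60 labelled TNF-treated.

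**Figure D4:**
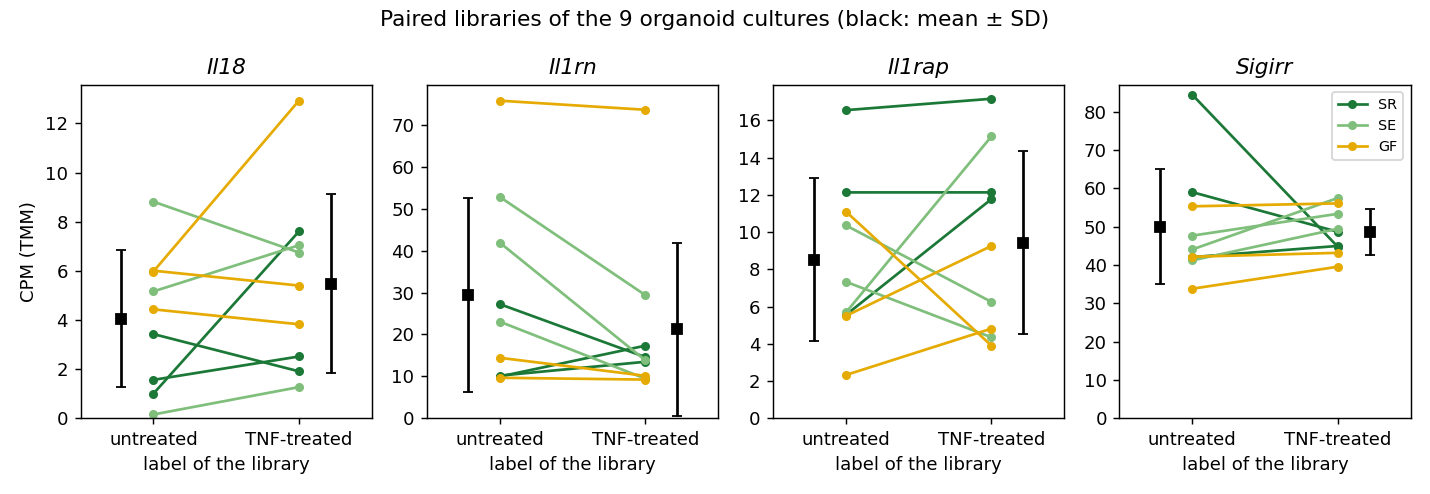
CPM of the 4 members above the filter in organoids, with a line joining the paired libraries of each of the 9 cultures (coloured by facility) and the mean ± SD of each label in black. Lines cross in each panel, and the GF culture Z917 is highest for Il1rn under both labels, at 75.8 and 73.6 CPM.

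In m-ICc12, 6 members were tested and 0 passed in edgeR (0.11% of all genes passed), 0 had an unadjusted p under 0.05 (4.69% of all genes) and 0 passed in DESeq2. Il1rn had 37 counts in the 3 libraries labelled untreated and 3 in those labelled TNF-treated, and its level was lower in 3 of 3 pairs (−2.48 ± 1.77, adjusted p = 1). The M1 pair held 2 counts and 0, both under the floor, in libraries of 32567372 and 6071103 counts, so its direction is not informative. Sigirr, at 134, 114 and 115 CPM against 89.2, 122 and 125, overlapped between labels (−0.10 ± 0.173, adjusted p = 1). The difference in response between organoids and m-ICc12 was called for 0 of 7 members tested (0.159% of all genes; 0 at an unadjusted p under 0.05, where 6.5% of all genes were, and 0 in DESeq2).

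Il18r1 was rare, but unevenly spread between labels. In organoids it had 7 counts in 2 libraries labelled untreated and 104 counts in 7 libraries labelled TNF-treated, where Z913, Z917 and Z918 reached 1.39, 1.03 and 1.06 CPM. It was higher in 6 cultures, lower in 1 and at 0 in both libraries of 2. It was under the filter in the comparison of labels, and with every gene of at least 1 count tested it was not called.

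Organoids of GF and SPF mice did not differ past the threshold in any member. Of the 4 tested in libraries labelled untreated 0 passed (0.0325% of all genes did), 0 had an unadjusted p under 0.05 (3.99% of all genes) and DESeq2 called 0. Il18 was at 5.47 ± 0.899 CPM in GF (n = 3) and 3.35 ± 3.23 in SPF cultures (n = 6), a log2 difference of 0.71 ± 0.864. Il1rap was at 6.31 ± 4.44 and 9.60 ± 4.29 CPM (−0.60 ± 0.523) and Sigirr at 43.8 ± 10.8 and 53.1 ± 16.7 (−0.28 ± 0.234). Il1rn was at 33.3 ± 36.9 and 27.5 ± 17.2 CPM (0.28 ± 0.562), and without Z917 the difference was −1.19. The groups overlapped for all 4. The difference in response by label between GF and SPF organoids passed for 0 of 6 members and for 0 genes in all (0 members at an unadjusted p under 0.05, where 2.56% of all genes were, and 0 members in DESeq2).

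The paired libraries were compared over the 9 organoid cultures, to see whether a culture kept its level under both labels. For Il1rn, log2 CPM of the 2 libraries correlated over the 9 cultures with r = 0.72 (exact permutation test, two-sided, p = 0.0151, adjusted over 4 members 0.0604) and rho = 0.67 (exact p = 0.0589, adjusted 0.236). Without Z917 and Z919, farthest from the median, r was 0.43, so the relation rests on those cultures. For Il18, r was 0.64 (exact permutation p = 0.0614, adjusted 0.123) and rho 0.47 (exact p = 0.213, adjusted 0.425), and r was 0.71 without Z911 and Z909. For Il1rap (r = 0.27, exact permutation p = 0.491, adjusted 0.612; rho = 0.27, exact p = 0.493, adjusted 0.493) and Sigirr (r = 0.20, exact permutation p = 0.612, adjusted 0.612; rho = 0.30, exact p = 0.437, adjusted 0.493) r depended on the 2 farthest cultures (Z918 and Z910, and Z908 and Z909), and was −0.43 and 0.80 without them. None passed after adjustment, and a facility holds 3 cultures, too few for a value within it.

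Over the 18 organoid libraries, the genes whose log2 CPM followed a member most closely were picked as the 3 with the highest Pearson's r among 12104 genes. For Il18 these were Mtf1 (r = 0.87), Hnf4g (0.82) and Mt4 (0.81), and for Il1rn Tm4sf4 (0.87), F3 (0.87) and Anxa1 (0.86). For Il1rap they were Ndufaf4, Kirrel2 and Apaf1 (0.75 to 0.77) and for Sigirr Stk40, Tmc6 and Slc22a18 (0.79 to 0.80). The 4 members themselves did not follow each other, with r from −0.41 (Il1rn and Sigirr) to 0.02. The 18 libraries are pairs of 9 cultures, so the points are not independent. The highest of 12104 values of r can be large without a relation, and these were not tested.

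Of 11 further family genes, most were not found. In the comparison of organoids with MEFs 2 were tested and both passed, where 67.2% of all genes did. Il18bp, which encodes a soluble trap of IL-18, was higher in organoids labelled untreated (3.92 ± 2.53 against 0.781 ± 0.655 CPM, 2.34 ± 0.959 on the log2 scale, adjusted p = 0.041). By label, Il18bp was lower in the library labelled TNF-treated in 7 of 9 organoid cultures, a difference that was not called (−0.82 ± 0.540). Its difference from MEFs with those libraries is not given here. Il18rap, the accessory chain of the IL-18 receptor, was higher in MEFs (3.34 ± 1.28 CPM, against 0.132 ± 0.261 in organoids, adjusted p = 0.0051). Il18rap was also lower in m-ICc12 than in MEFs (adjusted p = 0.0034), the only call of the 2 tested there, beside 59.3% of all genes. The MEFs thus had counts of Il18rap and none of Il18r1. Between organoids and m-ICc12 (where 60.9% of all genes passed), between labels and between GF and SPF, 1 of the 11 was tested each time and 0 passed.

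The 14 genes of receptor signalling moved in both directions between cultures. Between organoids and m-ICc12 all 14 were tested, and 4 were higher and 2 lower in organoids, a smaller share than the 60.9% of all genes called. Among them were Irak4, the first kinase of the pathway (1.17 ± 0.226 on the log2 scale, adjusted p = 0.00028), Myd88, its adaptor (1.10, adjusted p = 0.0025), and Tab3, an adaptor of the kinase TAK1 (−1.24, adjusted p = 0.00019). Against MEFs, 6 were higher and 4 lower in organoids (14 tested), and 6 higher and 3 lower in m-ICc12 (13 tested), where 67.2% and 59.3% of all genes were called, with Irak4 higher in both (2.64 and 1.43) and Map3k7, which encodes TAK1, lower in both (−0.72 and −0.98). Median log2 fold changes of the list were 0.26, 0.37 and 0.48, beside 0.03, 0.03 and −0.05 over all genes. By label, 0 of 13 passed in organoids and 0 of 13 in m-ICc12, and 0 of 13 passed between GF and SPF.

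Most of the 13 genes of maturation and release, which process and liberate IL-1 family cytokines, passed the test between cultures, as did most genes. Against m-ICc12, 8 of 12 tested were higher and 2 lower in organoids (31.6% and 29.3% of all genes), with a median of 3.60 beside 0.03 over all genes. Casp1, which cuts pro-IL-18, was at 99.6 ± 10.8 CPM in organoids, 5.82 ± 2.54 in m-ICc12 and 0.125 ± 0.0293 in MEFs. Pycard, the inflammasome adaptor ASC, was at 250 ± 28.6, 0.506 ± 0.359 and 0.306 ± 0.185 CPM. Gsdmd, the pore-forming gasdermin D, was at 26.8 ± 10.7, 0.0463 ± 0.0567 and 7.12 ± 2.73 CPM. Its organoid value is that of libraries labelled untreated. Organoid libraries labelled TNF-treated differed from these by −1.71 on the log2 scale, beside 1.94 for organoids labelled untreated against MEFs. The part of the treatment in the difference from MEFs was not tested. The genes lower in organoids than in m-ICc12 were Capn1 and Capn2, calpain subunits. Capn2 was at 12.7 ± 7.02 CPM in organoids, 290 ± 22.1 in m-ICc12 and 356 ± 21.9 in MEFs. Against MEFs, 9 of 13 were higher and 3 lower in organoids (median 1.99; 34.6% and 32.6% of all genes), and 5 of 12 higher and 6 lower in m-ICc12 (median 0.16; 28.1% and 31.2% of all genes). These medians, and those of signalling genes, were the same with genes at 0 in 1 culture set to their bound of 3 counts. Inflammasome genes were among those the study itself picked from these libraries, so their direction here is not independent evidence. Il18, Casp1, Pycard and Gsdmd were thus all higher in organoids than in m-ICc12, while m-ICc12 held the most Il33.

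By label, 2 of 12 maturation genes passed in organoids, both lower in libraries labelled TNF-treated, as were 1.26% of all genes. Casp4, which encodes caspase-11, was at 50.2 ± 8.76 CPM labelled untreated and 15.6 ± 3.74 labelled TNF-treated, lower in 9 of 9 cultures without overlap (−1.70 ± 0.149, adjusted p = 1.7e-08). Gsdmd, which caspase-11 cuts, was at 26.8 ± 10.7 and 8.23 ± 1.95 CPM, lower in 9 of 9 cultures (−1.71 ± 0.221, adjusted p = 1.3e-05). Both had the sign of the 4 NF-κB target genes, while Il18 was not called. The paper reports that TNF could induce Caspase-11 and Gsdmd in organoids, opposite to the direction by label here. These values thus do not show that TNF lowers either gene. In m-ICc12, 0 of 9 passed, with Casp4 at 9.22 ± 3.60 and 2.48 ± 1.48 CPM and lower in 3 of 3 pairs. Between GF and SPF, 0 of 12 passed.

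**Figure D5:**
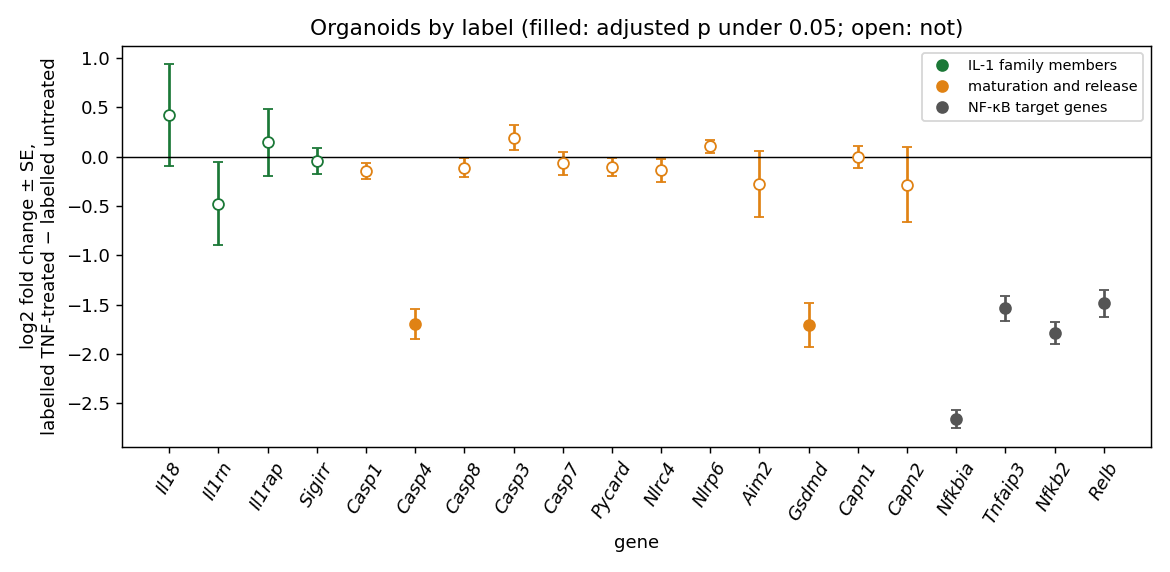
Log2 fold change with its standard error between organoid libraries labelled TNF-treated and untreated (9 each), for the 4 members tested, the 12 maturation genes tested and 4 NF-κB target genes. Filled points have an adjusted p under 0.05: Casp4, Gsdmd and the 4 target genes lie between −1.49 and −2.66, and the members between −0.48 and 0.42.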

How the data were processed

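RNA of 27 libraries was sequenced as single-end reads. The authors trimmed the reads, aligned them with STAR to GRCm38 (Ensembl release 91) and counted them per gene; the paper names GenomicRanges and the processing notes featureCounts with STAR 2.5.4b. The deposited values are whole-number counts per gene, not normalized, for 22524 genes; no column was left unmapped. Symbols and exon lengths came from GENCODE vM21.

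Each comparison held only the groups compared. A gene was tested if it reached 10 counts in 50% or more of the libraries of either group. The test used TMM normalization and edgeR's quasi-likelihood F-test, without covariates, with Benjamini-Hochberg adjustment over all genes tested and a threshold of 0.05. Levels are CPM with TMM factors of all 27 libraries, correlations were made on log2 CPM (prior count 2), and RPKM used the union of exons. Fitted log2 values are given with their standard error and other values as mean ± SD. Where a group held 1 to 3 counts, the ratio of pooled counts is given with its exact interval (95%). Intervals and floors cover counting error only. No 2 libraries were identical. Computations used R 4.3.3, edgeR 4.0.16, DESeq2 1.42.0, Python 3.11.15 and scipy 1.17.1. The fits were tested on simulated data with changes of 1 on the log2 scale. They recovered 79% of these by label in organoids, 53% between GF and SPF, and 34% in the difference of responses between organoids and m-ICc12. False calls were 1.45% to 9.77% of the calls. A member that was not called may thus still differ.

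The 10 members were named in full. From the lists of 11 family, 14 signalling and 13 maturation genes, counts of calls are given, with up to 5 called genes per comparison by smallest p, and genes named beyond this were chosen after their values were seen. Members and lists were chosen with earlier results of these data known. The libraries of an organoid culture come from the same mouse, and their deviations from the label means correlated with r from 0.0821 to 0.311 (mean 0.171), each best with its own culture in 9 of 9. Alternatives were DESeq2, its size factors in edgeR, no filter beyond 1 count, a block for the culture, the libraries labelled TNF-treated in place of those labelled untreated, and leaving out each culture in turn. Exchanging the treatment within pairs turns the sign of a difference by label. In comparisons of cultures, or of GF with SPF organoids, it changes which libraries enter. The fits with the libraries labelled TNF-treated give the values for that case. The proteome was not analysed here.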

Additional observations from a re-analysis of the deposited data

Results flagged for a closer look

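In groups of 9 organoid libraries, a library was singled out when its gap to the nearest other library, divided by the whole range, was above Dixon's critical value. Of 17 groups examined, 8 held such a library. Chance gives about 1 in 20 only for normally distributed values, so that rate does not apply to these sparse levels, and a library that alone holds counts, as for Il1a, is always singled out. Among libraries labelled untreated, Z908 stood apart for Sigirr (84.5 CPM, next 59.0), Il1r1 (1.90 CPM, next 0.887) and Il1a (0.633 CPM, all others 0). Z918 stood apart for Il33 (2.32 CPM, next 0.719), Z919 for Il1rl1 (1.37 CPM, next 0.372) and Z912 for Il18r1 (0.196 CPM, next 0.0397). Among libraries labelled TNF-treated, Z917 stood apart for Il1rn (73.6 CPM, next 29.4) and Z909 for Il1r1 (0.634 CPM, next 0.0637). The values of Il1a and Il18r1 rest on 17 and 6 counts, and those of Il1r1 in Z908 and Z909 on 51 and 21.

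The immune markers summed to between 4.03 and 19.9 CPM in the organoid libraries labelled untreated, with a median of 6.15, and to between 75.01 and 126 CPM in those of m-ICc12. Their part in these values was not tested.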

How the results depend on the processing

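Calls and directions were refitted under the alternatives, 613 values in all. The number of members called stayed within 1.5 times in each comparison, and none of the 15 called values changed its direction. With 1 culture left out, uncalled values turned their sign. The lowest and highest values, on the log2 scale, were those of Il1rap (−0.0265 to 0.31) and Sigirr (−0.0996 to 0.0993) by label in organoids. Further ranges were those of Il1r1 (−2.54 to 1.52), Il1rap (−0.54 to 0.17), Il1rl1 (−1.32 to 1.89), Il33 (−0.77 to 0.71) and Sigirr (−0.22 to 0.11) by label in m-ICc12. Further ranges were those of Il1r1 (−2.29 to 0.53), Il1rap (−0.0194 to 0.29) and Il1rl1 (−1.69 to 0.28) between organoids and m-ICc12, and Il1rn (−1.19 to 0.72) between GF and SPF organoids. Further ranges were those of Il18 (−1.62 to 0.43), Il1r1 (−3.58 to 0.67), Il1rap (−0.0262 to 0.72), Il1rl1 (−0.85 to 2.37), Il33 (−1.38 to 0.11) and Sigirr (−0.15 to 0.20) in the difference of label responses between organoids and m-ICc12, and Il18 (−0.61 to 0.39), Il1rap (−0.85 to 0.63), Il33 (−1.17 to 4.20) and Sigirr (−0.0433 to 0.26) in that difference between GF and SPF organoids. All these values had an adjusted p above 0.05 in the comparison as reported.

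The culture as a replicate block called 0 members by label in organoids, 0 in m-ICc12 and 0 in either difference of responses. Over all genes it called 397 in organoids in place of 168, 6 in place of 13 in m-ICc12, and 103 in place of 21 in the difference between the 2. Under the block Il33 turned to 0.0412 by label in m-ICc12 and to 1.43 in the difference between GF and SPF, and no call of a member changed. In m-ICc12 the pairs shared little beyond a number (r from −0.01 to 0.09, 1 of 3 cultures correlating best with itself). DESeq2 called 218 genes by label in organoids, 46 in place of 13 in m-ICc12, 21 in place of 4 between GF and SPF, 74 in place of 21 in the difference of responses between cultures, and 1 in place of 0 in that difference between GF and SPF.

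Il33 between organoids and m-ICc12 lost its call without M3 (−3.00, adjusted p = 0.11), and Il18 between m-ICc12 and MEFs without the MEF library R1 (−5.73, adjusted p = 0.054). Il18 between organoids and MEFs gained one without Z909 (2.32), Z910 (2.30) or Z911 (2.36), with adjusted p of 0.04, 0.048 and 0.013. With the libraries labelled TNF-treated, Il18 between m-ICc12 and MEFs was −4.52, Il1r1 between organoids and MEFs −7.26 and Il1rn between organoids and m-ICc12 8.67. The cause of these shifts was not tested. Il1a and Il18r1 were under the filter between cultures and were not called where every gene of at least 1 count was tested, while Il1b had no count to test.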
